A study of Cavia porcellus with 12 samples.

Results

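The miR-17-92 and miR-106b-25 clusters were examined in guinea pig ventricular cardiomyocytes exposed to doxorubicin (DOX). Members were taken by name from 3 deposited tables, as every entry assigned to hsa-mir-17, hsa-mir-18a, hsa-mir-19a, hsa-mir-20a, hsa-mir-19b-1 or hsa-mir-92a-1 of the first cluster, to hsa-mir-106b, hsa-mir-93 or hsa-mir-25 of the second, or to hsa-mir-92a-2, a copy of mir-92a that lies in the related miR-106a-363 cluster. These are 10 of the 287 human precursors with a listed sequence, and all 10 had entries. An entry is 1 sequence under 1 human precursor, and the members had 76 entries in all, of which 42 were listed for 1 h, 36 for 22 h and 75, with a mean above 0, for DOX 22 h and DOX 1 h. Cells came from adult female Hartley guinea pigs by retrograde perfusion and enzymatic dissociation, and were kept at room temperature with DOX, an anthracycline cancer drug, at 10 µM, or with DMSO, its vehicle. The labels give 12 libraries of small RNA in 4 groups of 3: DMSO 1 h, DOX 1 h, DMSO 22 h and DOX 22 h. The first table sets the drug against its vehicle at the early time and the next at the late time, and the last sets DOX 22 h against DOX 1 h, so that they ask how miRNA levels differ early, late and over time under the drug.

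A miRNA cluster is a run of precursors cut from 1 transcript. miR-17-92 is carried by the noncoding host gene MIR17HG, miR-106b-25 lies within an intron of MCM7, a gene of the DNA replication helicase, and miR-106a-363 is a further paralog. Their miRNAs fall into 4 seed families, the seed being the short stretch near the start of a miRNA that pairs with its targets. The miR-17 family (miR-17, miR-20a, miR-93 and miR-106b) is known for holding down the cell cycle inhibitor CDKN1A, and the miR-19 family (miR-19a and miR-19b), the miR-92 family (miR-92a and miR-25) and miR-18a complete the set. MYC and E2F factors are known activators of these loci, and miR-17-92 has been tied to growth and proliferation of heart muscle cells. Each precursor can give a miRNA from either side of its hairpin, named 5p and 3p, and usually 1 strand is far more abundant than the other.

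The leading sequence of each abundant strand is shown because the grouping into families and the reading of shared sequences rest on it. Capitals mark the first 6 listed bases. The listed sequences begin inside the textbook mature forms, just past the seed's first base, so the capitals are the listed part of the seed.
mir-17-5p: AAGTGCttacagtgcaggtag
mir-20a-5p: AAGTGCttatagtgcaggtag
mir-93-5p: AAGTGCtgttcgtgcaggtag
mir-106b-5p: AAGTGCtgacagtgcagat
mir-18a-5p: AGGTGCatctagtgcagat
mir-19a-3p: TGCAAAtctatgcaaaactga
mir-19b-1-3p: TGCAAAtccatgcaaaactga
mir-92a-1-3p and mir-92a-2-3p: TTGCACttgtcccggcctgt
mir-25-3p: TTGCACttgtctcggtctga
With positions counted from 1 at the first listed base, mir-19a-3p differed from mir-19b-1-3p by C9T, and mir-25-3p differed from mir-92a-1-3p by C12T, C16T and T20A. Against mir-93-5p, mir-20a-5p carried G8T, T9A and C11A. The leading sequences of mir-92a-1-3p and mir-92a-2-3p had 0 substitutions between them.

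4 sequences of the less abundant strands are shown because their forms are described below. They are the leading sequences of mir-17-3p, mir-92a-1-5p and mir-106b-3p, and a mir-106b-3p form with an earlier start. Capitals mark the first 6 listed bases, and in the last sequence the 2 bases by which it began upstream of the leading mir-106b-3p sequence.
mir-17-3p: TGCAGTgaaggcacttgta
mir-92a-1-5p: GTTGGGatcggttgcaatgct
mir-106b-3p: GCACTGtgggtacttgct
mir-106b-3p, earlier start: CCgcactgtgggtacttgct

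The tables give for each entry the authors' mean of normalized counts over both groups. These means cannot show a difference between groups by themselves. For the tables with DOX 22 h, each mean was a whole-number combination of the reads of 2 libraries, and entry names of predicted miRNAs identified these as replicate 1 of DOX 22 h, DMSO 22 h and DOX 1 h. Reads were taken only where a single combination was possible, which held for all 36 member entries of the 22 h table. Over all entries these recovered reads came to 474676 in DOX 22 h, 440303 in DMSO 22 h and 623520 in DOX 1 h, a part of each library and not its depth. Each comparison therefore sets 1 library against 1 library, with no replicate check, and no test between conditions was possible. Ratios are log2 of reads plus 0.5 after the size factors in the means, with exact 95% Clopper-Pearson intervals that cover counting error only. Reads of DMSO 22 h and DOX 1 h are also given scaled to the DOX 22 h library. Both comparisons share the DOX 22 h library, so a high or low value there enters both. Reads were not recovered from the means at 1 h, so DOX and DMSO at 1 h are described by their joint level alone.

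Together the members were a small part of the small RNA in these cells, and mir-92a made up most of it. The summed means were 19353 normalized counts at 1 h, 14385 at 22 h and 16486 in DOX 22 h with DOX 1 h, which is 0.329%, 0.301% and 0.275% of the sums of the tables. The tables were normalized separately, so levels are best compared as shares within a table. In such bulk samples, fewer cells of a type and less RNA per cell cannot be told apart. The miR-92 family held 76.2% of the members' mean at 1 h, 77.1% at 22 h and 75.2% in DOX 22 h with DOX 1 h. The miR-17 family held 18.2%, 16.9% and 18.4% in the same order, and the miR-19 family held 3.75%, 4.13% and 4.02%. The order of the families was the same in each of the 3 comparisons.

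By precursor, hsa-mir-92a-1 led with 6729, 5230 and 5750 normalized counts at 1 h, at 22 h and in DOX 22 h with DOX 1 h, and ranked 62, 57 and 61 among all precursors. Next came hsa-mir-92a-2 with 5908, 4488 and 5031 normalized counts, nearly all of it the sequence that it shares with mir-92a-1. The 3 precursors of miR-106b-25 followed, with hsa-mir-25 at 2142, 1387 and 1627 normalized counts, hsa-mir-93 at 1819, 1169 and 1473, and hsa-mir-106b at 1133, 924 and 1072. The remaining members of miR-17-92 were all lower than these. hsa-mir-20a stood at 643, 423 and 575 normalized counts and hsa-mir-19b-1 at 609, 485 and 537, and these neighbours changed places between the comparisons. hsa-mir-17 had 223, 169 and 254 normalized counts and hsa-mir-19a 117, 109 and 126. Within 1 cluster, levels therefore spread from 28.8 normalized counts for hsa-mir-18a to 6729 for hsa-mir-92a-1 at 1 h.

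**Figure D1:**
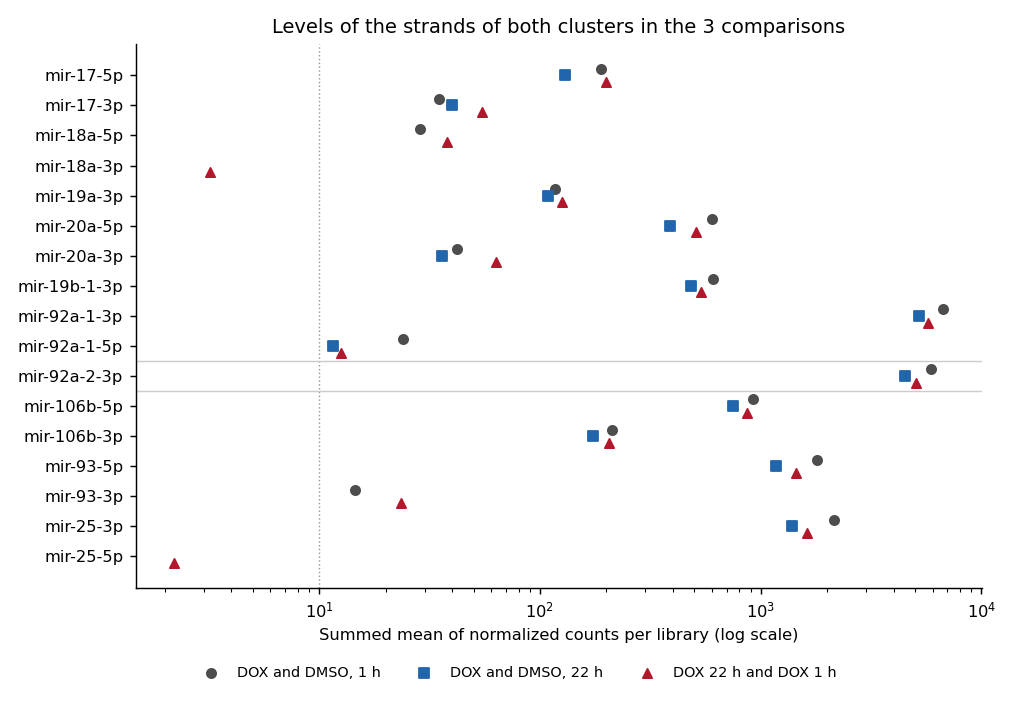
Summed mean of normalized counts per library (log axis) for each strand of the 10 precursors in the 3 comparisons, with miR-17-92 above, mir-92a-2 between the grey lines and miR-106b-25 below; the dotted line is the lowest listed mean of the tables for 1 h and 22 h, 10 normalized counts. The mir-92a strands lie highest, at 6705 and 5908 normalized counts at 1 h, and mir-25-5p lowest at 2.20 in DOX 22 h with DOX 1 h.

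No member was missing from every table, but hsa-mir-18a was absent at 22 h. The tables for 1 h and 22 h list only means of at least 10 normalized counts, so an absent entry there may lie under this limit. Guinea pig reads were aligned to human sequences, and the effect of this on absent or rare entries was not tested. hsa-mir-18a had 2 entries at 1 h, both of the 5p strand, with 15.6 and 13.2 normalized counts, and 4 entries in DOX 22 h with DOX 1 h, which summed to 41.1. Its 5p reads could not be resolved: the leading entry allowed between 6 and 27 reads in DOX 22 h and between 3 and 30 in DOX 1 h. Its 3p strand had 1 read in DOX 22 h and 6 in DOX 1 h, a log2 ratio of -1.75 (-7.75 to 0.82).

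Some strands were below the limit or not listed at all. mir-93-3p was listed at 1 h with 14.5 normalized counts and in DOX 22 h with DOX 1 h with 23.5, and not at 22 h. mir-25-5p had a mean of 2.20 normalized counts and stood only in DOX 22 h with DOX 1 h, with 5 reads in DOX 1 h and 0 in DOX 22 h. With a count of 0 taken as at most 3 reads, this allows up to 0.211% of the hsa-mir-25 reads. The 5p strands of hsa-mir-19a, hsa-mir-19b-1 and hsa-mir-92a-2 had no entry with a mean above 0. In all, 17 strands were listed, and reads in all 3 libraries were recovered for 13 of them.

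Copies of a miRNA share sequences, and the tables divide such reads between precursors. Of the 76 entries, 16 carried a sequence that also stood under another precursor, and these 16 held 65.6% of the members' mean in DOX 22 h with DOX 1 h. The leading mir-92a sequence had 4725 reads under hsa-mir-92a-1 and 4684 under hsa-mir-92a-2 in DOX 22 h, 4525 and 4299 in DMSO 22 h, and 5348 and 5358 in DOX 1 h. The share under hsa-mir-92a-1 was 50.2% (49.2 to 51.2%), 51.3% (50.2 to 52.3%) and 49.9% (49.0 to 50.9%). The leading mir-17-5p sequence was listed in the same way under hsa-mir-106a, with 148 reads under hsa-mir-17 and 184 under hsa-mir-106a in DOX 22 h. Of 18 such divisions, over 6 sequences and 3 libraries, 17 had an interval that held 50%. The exception was mir-92a in DMSO 22 h. A difference between such copies is thus no measure of the loci, and the transcript that gave the reads cannot be told apart from its copy.

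**Figure D2:**
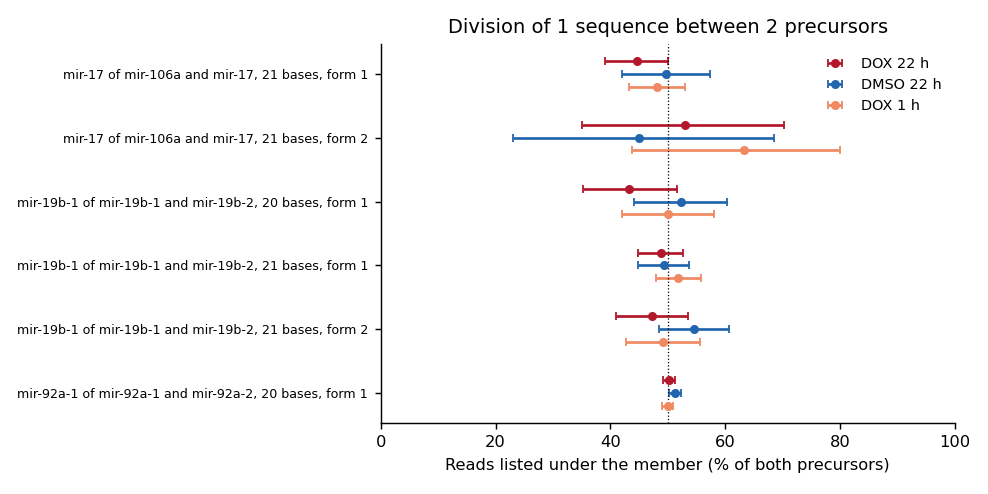
Reads listed under the member (mir-17, mir-19b-1 or mir-92a-1), as a percentage of the reads of 1 sequence under both of its precursors, in each of 3 libraries, with exact 95% Clopper-Pearson intervals; forms of equal length differ in the last base. Shares lie about the dotted line at 50%, between 43.3% and 63.3%.

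At 22 h, the clusters differed little between the DOX and the DMSO library. miR-17-92 had 6667 reads in DOX 22 h and 6174 in DMSO 22 h, the latter equal to 6943 after scaling, and its log2 ratio was -0.06 (-0.11 to -0.01), or 0.00 when libraries were scaled by their recovered reads in total. miR-106b-25 had 3811 and 3175 reads, the latter scaled to 3570, and its log2 ratio was 0.09 (0.03 to 0.16). For mir-92a-2, 4684 reads stood against 4299, or 4834 scaled, with a log2 ratio of -0.05 (-0.11 to 0.01), or 0.02 by total reads. All 3 values lie far inside the fold limit of the study, an absolute log2 ratio of 0.8. Without mir-92a-1, which holds most of its reads, and mir-92a-2, the value of miR-17-92 was 0.09.

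The seed families differed in their ratios at 22 h. The miR-17 family had 2767 reads in DOX 22 h against 2132 in DMSO 22 h, or 2397 scaled, a log2 ratio of 0.21 (0.12 to 0.29). The miR-19 family had 619 against 571 reads (642 scaled), with a log2 ratio of -0.05 (-0.22 to 0.11), or 0.01 by total reads and 0.15 with leading entries. For the miR-92 family, 11471 against 10723 reads (12058 scaled) gave -0.07 (-0.11 to -0.03), or -0.01 by total reads. With sequences listed under 1 precursor only, the miR-17 family had 0.18 and the miR-19 family, then mir-19a alone, 0.28, so their order depends on the shared sequences. As a share of the members' reads, the miR-17 family had 18.2% (17.6 to 18.9%) in DOX 22 h, 15.6% (15% to 16.2%) in DMSO 22 h and 18.5% (17.9 to 19.1%) in DOX 1 h. The DMSO 22 h library was thus the low one, and the intervals of the DOX libraries overlapped.

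Within the miR-17 family the 4 members were not alike at 22 h. mir-17-5p had 166 reads in DOX 22 h and 96 in DMSO 22 h (108 scaled), with a log2 ratio of 0.62 (0.25 to 1.00). mir-93-5p had 1347 and 1007 reads (1132 scaled), with 0.25 (0.13 to 0.37), and mir-106b-5p had 847 and 661 (743 scaled), with 0.19 (0.04 to 0.34). mir-20a-5p, whose precursor lies in the same cluster as that of mir-17, had 407 and 368 reads (414 scaled), with a log2 ratio of -0.02 (-0.23 to 0.18), or 0.04 by total reads. When the leading mir-17-5p sequence was summed over hsa-mir-17 and hsa-mir-106a, 332 reads stood against 175 (197 scaled), a log2 ratio of 0.75 (0.49 to 1.03). It had 424 reads in DOX 1 h, or 330 scaled, so that DOX 22 h and DOX 1 h were alike and DMSO 22 h was low.

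Of the other abundant strands at 22 h, mir-25-3p had 1421 reads in DOX 22 h and 1353 in DMSO 22 h (1521 scaled), with a log2 ratio of -0.10 (-0.21 to 0.01), or -0.49 for the 18-base form, its only entry solved in the 22 h table alone. mir-92a-1-3p, with 5366 and 5071 reads (5702 scaled), stood at -0.09 (-0.14 to -0.03), or 0.06 for its 21-base form, the only one listed under no other precursor. mir-19a-3p had 127 and 93 reads (105 scaled) and a log2 ratio of 0.28 (-0.12 to 0.68), and mir-19b-1-3p had 492 and 478 (538 scaled) and -0.13 (-0.31 to 0.06), or 0.14 with its leading entry and -0.02 summed over precursors. Over the 9 abundant strands the log2 ratios ran from -0.13 to 0.62, and 4 were above 0. mir-20a-5p, mir-92a-2-3p, mir-92a-1-3p and mir-19b-1-3p were below 0 as given and above it in 1 or more of the alternatives.

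Between DOX 22 h and DOX 1 h, both clusters were slightly higher in the later library. miR-17-92 had 6667 reads in DOX 22 h and 7685 in DOX 1 h, the latter equal to 5977 after scaling, and its log2 ratio was 0.16 (0.11 to 0.21). miR-106b-25 had 3811 and 4398 reads, the latter scaled to 3421, with a log2 ratio of 0.16 (0.09 to 0.22). For mir-92a-2 it was 0.17 (0.11 to 0.23), with 5358 reads in DOX 1 h, or 4167 scaled. The cluster of miR-17-92 stood at 0.08 without mir-92a-1 and mir-92a-2. With entries solved in the 22 h table alone, the clusters stood at 0.10 and 0.30. Over all entries with at least 10 reads the median log2 ratio was 0.05, with the middle 50% from -0.23 to 0.36, a spread of single entries that a sum over many reads cannot be read against.

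By family, miR-17 had a log2 ratio of 0.14 (0.07 to 0.22), with 3225 reads in DOX 1 h (2508 scaled). The miR-92 family had 0.15 (0.11 to 0.19), with 13288 reads (10335 scaled), or -0.01 without mir-92a-1 and mir-92a-2, and the miR-19 family 0.28 (0.12 to 0.44), with 654 reads (509 scaled). With sequences listed under 1 precursor only, the values were 0.16, 0.04 and 0.44 in this order, so those of the miR-92 and miR-19 families depend on the shared sequences. Single strands spread more widely than families. mir-20a-5p was the lowest of the 9 abundant strands, with 623 reads in DOX 1 h (485 scaled) and a log2 ratio of -0.25 (-0.44 to -0.07). mir-19a-3p was the highest, with 120 reads (93.3 scaled) and 0.44 (0.07 to 0.82), and mir-106b-5p stood at 0.33 (0.19 to 0.47), with 867 reads (674 scaled). mir-17-5p, with 223 reads (173 scaled), had -0.06 (-0.36 to 0.23), or 0.05 summed over precursors, and mir-25-3p, with 1843 reads (1433 scaled), had -0.01 (-0.11 to 0.09), or 0.02 by total reads and 0.17 for its 18-base form. mir-92a-1-3p stood at 0.18 (0.13 to 0.23), mir-93-5p at 0.20 (0.09 to 0.30) and mir-19b-1-3p at 0.24 (0.06 to 0.42). Of the 9 abundant strands, 6 were above 0.

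**Figure D3:**
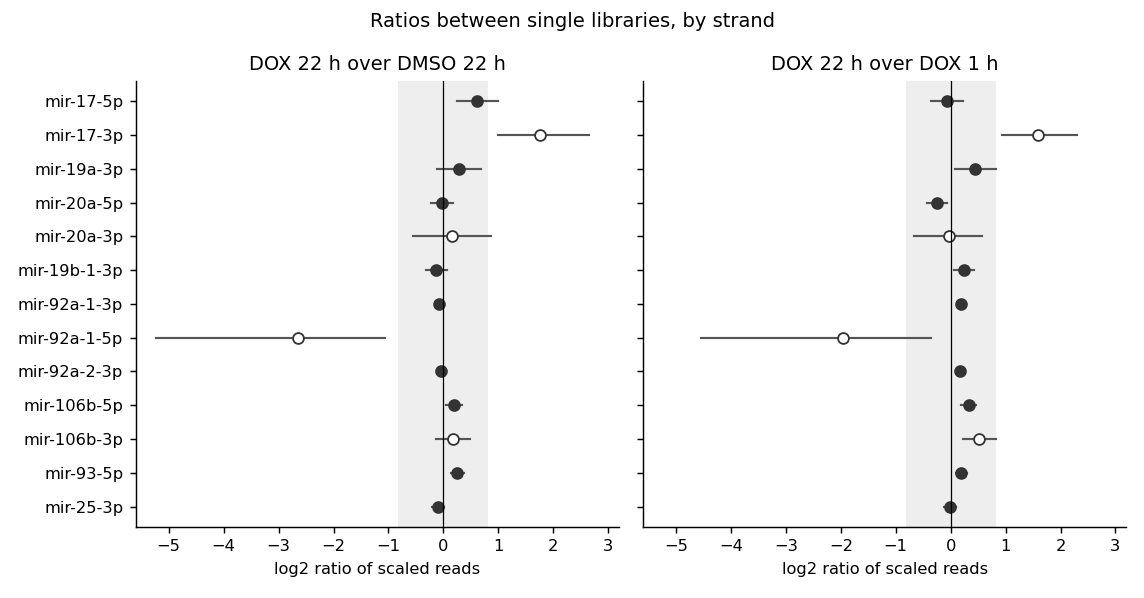
Log2 ratios of scaled reads between 2 libraries for the 13 strands with reads in 3 libraries, with exact 95% Clopper-Pearson intervals (counting error only); filled points are the abundant strand of a precursor, open points the less abundant strand, and the grey band is the fold limit of 0.8. The abundant strands lie inside the band, mir-17-3p lies above it in both panels (1.76 and 1.58) and the 21-base form of mir-92a-1-5p, the only one of that strand listed at 22 h, below it (-2.65 and -1.96). The mir-17-3p values hold a 19-base form listed at 22 h through DOX 22 h.

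Most entries past the fold limit had few reads. At 22 h, 5 of 36 member entries were higher in DOX 22 h by an absolute log2 ratio of at least 0.8, beside 10.5% of the 1213 entries of all precursors with at least 10 reads, and 1 of 36 was lower, beside 7.25%. Between DOX 22 h and DOX 1 h, 7 of 36 were higher, beside 8.99% of 1212 entries, and 2 of 36 were lower, beside 3.63%. The median log2 ratio of the 36 entries was 0.12 at 22 h and 0.18 between the DOX libraries, beside 0.00 and 0.05 over all entries. No member entry past the limit at 22 h had more than 42 reads over both libraries. Among entries with 10 to 99 reads, 6 of 18 member entries passed at 22 h, beside 29.7% of 549 over all precursors, and 8 of 18 passed between the DOX libraries, beside 24.7% of 518. With 100 reads and more, 0 of 18 and 1 of 18 passed, beside 7.83% of 664 and 3.60% of 694.

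The entries compared had to reach the limit of the 22 h table, which can favour a rare entry that is high in either library at 22 h over an entry that is high in DOX 1 h. Of the 6 member entries past the fold limit at 22 h, 5 would have had a mean under 10 normalized counts if both libraries had held the reads of the lower one after scaling, beside 81 of the 215 entries past it over all precursors, a count chosen after seeing the data. These were the 19-base mir-17-3p form, the 21-base mir-92a-1-5p form, the 20-base mir-19a-3p form, the 17-base mir-106b-5p form and the mir-106b-3p form with the earlier start, so their ratios at 22 h are a description only. The 18-base mir-17-3p form was the only one past the limit that did not depend on it in this way. This form passed narrowly, with a mean of 10.6 normalized counts if both libraries had held its DMSO 22 h level. Between the DOX libraries, 6 of the 9 entries past the fold limit had depended on 1 library at 22 h for their listing, beside 50 of 153 over all precursors. With every entry whose reads in the DOX libraries were known, listed at 22 h or not, 7 of 37 member entries were higher in DOX 22 h and 3 were lower, beside 8.91% and 4.61% of 1324 entries. At 22 h, 4 of the 6 entries past the limit were of a less abundant strand, and between the DOX libraries 6 of the 9. Such strands gave 10 of the 18 member entries with 10 to 99 reads, so nothing is read from these counts.

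Summed, the less abundant strands had 305 reads in DOX 22 h, 222 in DMSO 22 h (250 scaled) and 274 in DOX 1 h (213 scaled), with log2 ratios of 0.29 (0.03 to 0.55) and 0.52 (0.28 to 0.76). With the entries not listed at 22 h added, the latter was 0.37 (0.14 to 0.59). mir-106b-3p gave most of these reads, with 196, 154 and 176 and log2 ratios of 0.18 (-0.13 to 0.49) and 0.52 (0.22 to 0.82), the latter 0.36 (0.07 to 0.65) with the added entries. These sums hide a difference between precursors.

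The less abundant strand of mir-17 had more reads in DOX 22 h than in either other library. mir-17-3p had 66 reads in DOX 22 h, 17 in DMSO 22 h (19.1 scaled) and 28 in DOX 1 h (21.8 scaled). The log2 ratio was 1.76 (1.00 to 2.65) at 22 h and 1.58 (0.94 to 2.29) between the DOX libraries. The 18-base form had 32 reads in DOX 22 h, 10 in DMSO 22 h and 12 in DOX 1 h, with log2 ratios of 1.46 (0.45 to 2.70) and 1.74 (0.78 to 2.87). The 19-base form had 34, 7 and 16 reads, and it reached the limit of the 22 h table through DOX 22 h, so at 22 h the strand's sum is in part set by that limit. A longer form with a mean of 4.85 normalized counts was left out, since its reads had 2 solutions, of up to 7 reads in DOX 22 h and 11 in DOX 1 h. No sequence of mir-17-3p stood under another precursor.

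Both strands of a precursor come from 1 hairpin, and their shares within a library do not depend on scaling. mir-17-3p took 28.4% (22.7 to 34.7%) of the 232 mir-17 reads in DOX 22 h, 15% (9.01 to 23.0%) of 113 in DMSO 22 h and 11.2% (7.54 to 15.7%) of 251 in DOX 1 h. These shares hold the 19-base form. Without the entries whose place in the 22 h table depended on 1 library, which leaves the 18-base form and the leading mir-17-5p sequence, mir-17-3p took 17.8% (12.5 to 24.2%) of 180, 10.3% (5.06 to 18.1%) of 97 and 5.56% (2.90 to 9.50%) of 216 reads. The intervals of the DOX libraries did not meet in either set, and those of DOX 22 h and DMSO 22 h overlapped. The mir-17-5p reads in these sums are those listed under hsa-mir-17, and with those under hsa-mir-106a added the shares were 15.3% (12% to 19%) of 432, 8.02% (4.74 to 12.5%) of 212 and 5.81% (3.89 to 8.29%) of 482 reads. mir-106b-3p, the most abundant of these strands, took 18.8% (16.5 to 21.3%), 18.9% (16.3 to 21.8%) and 16.9% (14.6 to 19.3%) in the same order. mir-20a-3p took 8.95% (6.47 to 12%), 8% (5.54 to 11.1%) and 7.84% (5.93 to 10.1%), and neither of these strands differed between libraries beyond its intervals. As shares of the means at 1 h, where DOX and DMSO are joined, mir-17-3p held 15.7%, mir-106b-3p 18.8% and mir-20a-3p 6.53%.

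mir-92a-1-5p stood on the other side, on few reads. Its 21-base entry had 3 reads in DOX 22 h, 19 in DMSO 22 h (21.4 scaled) and 17 in DOX 1 h (13.2 scaled), with log2 ratios of -2.65 (-5.23 to -1.07) and -1.96 (-4.55 to -0.35). It took 0.0559% (0.0115 to 0.163%) of the mir-92a-1 reads in DOX 22 h, 0.373% (0.225 to 0.582%) in DMSO 22 h and 0.279% (0.162 to 0.446%) in DOX 1 h, or 0.0298% (0.00615 to 0.0872%), 0.202% (0.122 to 0.316%) and 0.148% (0.0864 to 0.237%) with the reads of the shared sequences under hsa-mir-92a-2 added. A form shorter by 1 base, not listed at 22 h, had 6 reads in DOX 22 h and 0 in DOX 1 h. The shares above leave these reads out, so that of DOX 22 h is too low for the strand as a whole. With it, 9 reads stood against 17, and the log2 ratio between the DOX libraries was -0.52 (-1.90 to 0.69), so a difference of the strand between the DOX libraries was not detectable at this depth. At 22 h the 21-base entry had a mean of 11.5 normalized counts and reached the limit of the table through DMSO 22 h. At 1 h the strand had a mean of 23.9.

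**Figure D4:**
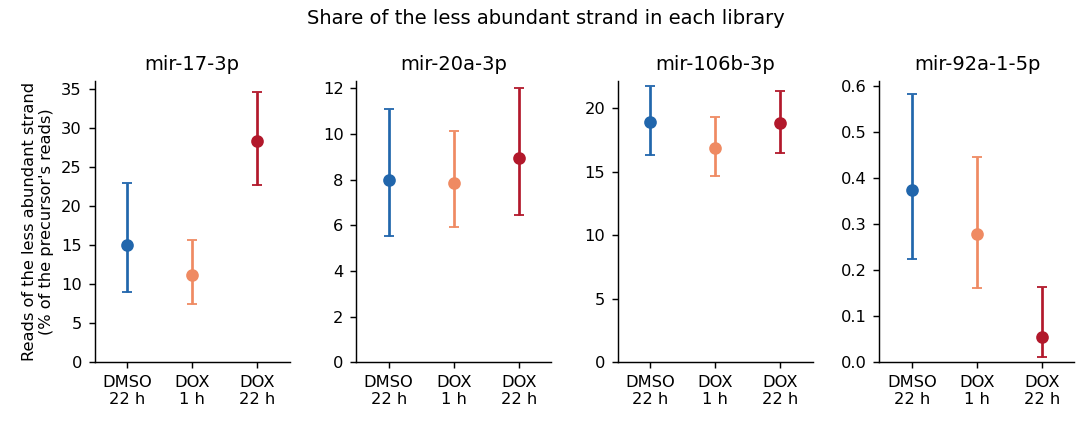
Reads of the less abundant strand as a percentage of the reads of its precursor in 3 libraries, with exact 95% Clopper-Pearson intervals; each panel has its own axis from 0. mir-17-3p is highest in DOX 22 h (28.4%), mir-20a-3p and mir-106b-3p overlap in all 3 libraries, and the 21-base form of mir-92a-1-5p is lowest in DOX 22 h (0.0559%). The mir-17-3p shares hold a 19-base form listed at 22 h through DOX 22 h. Without such entries they are 17.8% in DOX 22 h, 10.3% in DMSO 22 h and 5.56% in DOX 1 h. The mir-17-3p intervals of DOX 22 h and DMSO 22 h overlap. A mir-92a-1-5p form shorter by 1 base, with 6 reads in DOX 22 h, is left out.

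Forms of 1 strand that differ in length or end (isomiRs) were compared by their share of the strand's reads. No listed sequence was longer than 21 bases, the length of several leading forms, so longer forms cannot be seen. The leading form of mir-93-5p took 68.9% (66.3 to 71.4%) in DOX 22 h, 66.7% (63.7 to 69.6%) in DMSO 22 h and 68.7% (66.2 to 71.0%) in DOX 1 h. Its 19-base form took 13.4%, 15.8% and 13.2%. For mir-92a-1-3p, the leading 20-base form took 88.1% (87.2 to 88.9%), 89.2% (88.3 to 90.1%) and 87.9% (87.0 to 88.7%), and for mir-25-3p the leading form took 93.7%, 91.8% and 94.5%. mir-17-5p was led by 1 form with 89.2%, 90.6% and 91.5%, the rest being a form that differed by G21T. The shares of these leading forms overlapped in their intervals between the 3 libraries, except for mir-25-3p, whose leading form was at 90.2 to 93.2% in DMSO 22 h and at 93.3 to 95.5% in DOX 1 h.

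mir-106b-5p was divided over several forms. Its leading 19-base form had 483 reads in DOX 22 h, 391 in DMSO 22 h and 461 in DOX 1 h, or 57.0% (53.6 to 60.4%), 59.2% (55.3 to 62.9%) and 53.2% (49.8 to 56.5%) of the strand. The form longer by 1 base, AAGTGCtgacagtgcagata, took 20.3% (17.6 to 23.2%), 21.6% (18.6 to 25%) and 25.6% (22.7 to 28.6%). The form shorter by 1 base had 124, 77 and 88 reads and took 14.6% (12.3 to 17.2%), 11.6% (9.30 to 14.3%) and 10.1% (8.22 to 12.4%). It passed the limit against DOX 1 h with a log2 ratio of 0.85 (0.45 to 1.27) and stood at 0.51 (0.10 to 0.95) at 22 h. Its share was higher in DOX 22 h than in DOX 1 h, with intervals that touch. The 17-base form did not share this: it had 21, 6 and 28 reads, and passed the limit at 22 h alone, with 1.56 (0.28 to 3.24).

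In the miR-19 family some forms of equal length differ in their last base. For mir-19b-1-3p, the leading form had 308 reads in DOX 22 h, 248 in DMSO 22 h and 335 in DOX 1 h, or 62.6% (58.2 to 66.9%), 51.9% (47.3 to 56.4%) and 62.7% (58.5 to 66.8%). The form with A21T, TGCAAAtccatgcaaaactgt, took 24.2% (20.5 to 28.2%), 31.2% (27.0 to 35.5%) and 22.5% (19.0 to 26.3%). For the leading form the DMSO 22 h library stood apart from both DOX libraries, and for the other form the intervals of DMSO 22 h and DOX 22 h overlapped. The same sequences under hsa-mir-19b-2 had 324, 255 and 311 reads for the leading form and 133, 124 and 124 for the form with A21T. Summed over both precursors, the log2 ratio at 22 h was 0.16 (-0.01 to 0.33) for the leading form and -0.28 (-0.54 to -0.03) for the form with A21T.

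The 20-base mir-19a-3p form, TGCAAAtctatgcaaaactg, had 24 reads in DOX 22 h, 8 in DMSO 22 h and 9 in DOX 1 h, with log2 ratios of 1.36 (0.21 to 2.78) and 1.73 (0.62 to 3.07), and it too was listed at 22 h through DOX 22 h. It took 18.9% (12.5 to 26.8%), 8.60% (3.79 to 16.2%) and 7.50% (3.49 to 13.8%) of the strand. The 2 longer forms listed at 22 h had 62, 49 and 62 reads and 41, 36 and 49 reads, with log2 ratios between 0.02 and 0.36. The form of mir-19b-1-3p with the same end had 65, 81 and 79 reads, with log2 ratios of -0.48 (-0.98 to 0.00) and 0.08 (-0.42 to 0.57).

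mir-106b-3p was spread over many forms, which differed in their start as well as in their length. The 20-base form with the earlier start had 18 reads in DOX 22 h, 3 in DMSO 22 h and 1 in DOX 1 h, with log2 ratios of 2.23 (0.64 to 4.82) and 3.99 (1.87 to 9.91). Its mean at 22 h, 10.1 normalized counts, was just above the limit and came mostly from DOX 22 h. Together with a 19-base form of the same start, it took 19 of 203 reads in DOX 22 h, or 9.36% (5.73 to 14.2%), and 6 of 203 in DOX 1 h, or 2.96% (1.09 to 6.32%). The intervals of these shares overlapped, which does not show that the shares are equal. With 1 library on each side, no difference of this start is read. The summed log2 ratio was then 1.95 (0.64 to 3.64), below that of the 20-base form alone. Forms that began 1 base after the main start had 0 of 203 reads in DOX 22 h, up to 1.48% if taken as at most 3 reads, and 11 of 203 in DOX 1 h, or 5.42% (2.74 to 9.49%). The main start took 90.6% and 91.6%. Among its forms, that of 18 bases had 55, 33 and 38 reads in DOX 22 h, DMSO 22 h and DOX 1 h, with log2 ratios of 0.56 (-0.08 to 1.24) and 0.89 (0.27 to 1.53), and that of 17 bases had 8, 12 and 20 reads, with -0.73 (-2.25 to 0.66) and -0.91 (-2.35 to 0.29). The forms of 1 strand therefore stood on both sides of 0. The forms GCACTGtgggtacttgctg, GCACTGtgggtacttgctgc and GCACTGtgggtacttgctgt had 38, 29 and 41 reads, 47, 48 and 42 reads, and 30, 29 and 34 reads, and none of them passed the limit.

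1 further entry passed the limit. The 18-base form of mir-93-5p had 13 reads in DOX 22 h, 8 in DMSO 22 h and 2 in DOX 1 h, with log2 ratios of 0.50 (-0.85 to 2.01) and 2.80 (0.92 to 6.25), and is among the entries listed at 22 h through DOX 22 h. It was at most 0.965% of its strand. Some rare entries listed under 1 miR-92 family member differed from the leading sequence of another by the last base alone. A sequence listed under hsa-mir-92a-1, TTGCACttgtctcggtctgt, differed from the leading mir-25-3p sequence by A20T alone, and had 3 reads in DOX 22 h and 8 in DOX 1 h. It also stood under hsa-mir-92a-2 and hsa-mir-25. Under hsa-mir-25, TTGCACttgtcccggcctga differed from the leading mir-92a-1-3p sequence by T20A alone, with a mean of 6.24 normalized counts. Where a mean was given, such entries held under 1% of the mean of their strand.

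Related precursors share seeds, and in part whole sequences, with the members. The miR-106a-363 cluster, taken as 5 precursors without mir-92a-2, had a summed mean of 1116 normalized counts at 1 h, 922 at 22 h and 1114 in DOX 22 h with DOX 1 h. hsa-mir-106a had 200 reads in DOX 22 h, 99 in DMSO 22 h (111 scaled) and 231 in DOX 1 h (180 scaled), with log2 ratios of 0.84 (0.49 to 1.21) and 0.16 (-0.13 to 0.43). hsa-mir-19b-2 stood at 0.09 (-0.09 to 0.27) and 0.44 (0.26 to 0.62). All recovered reads of hsa-mir-106a were of 2 sequences also listed under hsa-mir-17. Those of hsa-mir-19b-2 were all of 3 sequences also listed under hsa-mir-19b-1. The ratios of these 2 precursors are therefore not separate from those of the members. hsa-mir-363, which carries the miR-92 seed, had 266, 291 and 351 reads and log2 ratios of -0.30 (-0.54 to -0.05) and -0.04 (-0.27 to 0.20). hsa-mir-20b had a mean of 5.10 normalized counts in DOX 22 h with DOX 1 h, and hsa-mir-18b had no entry above 0. Of the 3 other precursors with the miR-92 seed, hsa-mir-92b had a mean of 17.2 and hsa-mir-32 of 10.1 normalized counts, and hsa-mir-367 had none. Over all precursors, the members held 92.8% of the mean of entries that begin with AAGTGC, 54.5% for TGCAAA, where hsa-mir-19b-2 held the rest, and 97.7% for TTGCAC.

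The precursor arms with the most similar ratios were sought among 135 others with at least 100 reads in each of the 3 libraries. Nearest to miR-17-92 were mir-340-5p, mir-335-3p and mir-30c-2-3p, at distances of 0.046, 0.061 and 0.067 over the 2 log2 ratios. The same 3 arms were nearest to mir-92a-2, at 0.036, 0.053 and 0.081. Nearest to miR-106b-25 were mir-101-2-3p, mir-361-3p and mir-152-3p, at 0.065, 0.067 and 0.069. Over 2 ratios that share a library, such a likeness is a description only.

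The labelled cell type was checked by marker precursors. All 7 cardiomyocyte precursors (mir-1, mir-133a, mir-208 and mir-499a) had entries, and together they held 33.5% of the sum of means at 1 h, 35.1% at 22 h and 37.1% in DOX 22 h with DOX 1 h, with hsa-mir-1-2 the most abundant at 10.8%, 11.0% and 11.6%. Markers of other cells were also present. The smooth muscle pair hsa-mir-143 and hsa-mir-145 held 19.4%, 21.0% and 19.8%, nearly all of it hsa-mir-143, and the endothelial hsa-mir-126 held 4.41%, 3.83% and 3.24%. The 3 fibroblast precursors held 0.266%, 0.201% and 0.197%, led by hsa-mir-199a-1 at 1 h. Reads were recovered for the rarer entries of these markers mostly, and for those the log2 ratio of hsa-mir-143 was -0.70 (-0.75 to -0.65) at 22 h and 0.14 (0.09 to 0.19) between the DOX libraries, that of hsa-mir-145 was 0.33 (0.27 to 0.39) and -0.19 (-0.24 to -0.14), so that the pair stood on opposite sides of 0 in both, and that of hsa-mir-126 was -0.02 (-0.05 to 0.01) and 0.07 (0.05 to 0.10). In recovered reads, the cardiomyocyte log2 ratios at 22 h ran from -0.47 (-0.52 to -0.42) for hsa-mir-208b to 0.20 (0.10 to 0.31) for hsa-mir-1-1. Between the DOX libraries they ran from -0.16 (-0.21 to -0.12) for hsa-mir-208b to 0.47 (0.40 to 0.55) for hsa-mir-499a. None of the marker lists had a member at 0 in every table.

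Blood cells are known for high levels of these clusters, so blood markers are given beside the ratios. The 3 precursors listed as red cell markers (mir-451a, mir-144 and mir-486) held 0.0448% at 1 h, 0.0388% at 22 h and 0.0399% in DOX 22 h with DOX 1 h, most of it mir-486. Whether mir-486 came from red cells was not tested, so this sum is no measure of such cells. mir-451a alone held 0.00739%, 0.00207% and 0.00242%. In recovered reads the 3 precursors had 1717 in DOX 22 h, 1971 in DMSO 22 h and 3159 in DOX 1 h, and mir-486 had log2 ratios of -0.40 (-0.50 to -0.31) and -0.54 (-0.63 to -0.45), mir-451a 0.06 (-0.35 to 0.48) and -0.34 (-0.71 to 0.01), and mir-144, with 20, 9 and 7 reads, 0.94 (-0.22 to 2.30) and 1.81 (0.58 to 3.36). The 3 white cell precursors (mir-223, mir-142 and mir-150) held 0.00884%, 0.00631% and 0.00707%, most of it mir-142, with 301, 301 and 311 reads in the same libraries. mir-142 had log2 ratios of -0.15 (-0.40 to 0.10) and 0.50 (0.24 to 0.75), mir-223 -0.08 (-1.16 to 1.00) and -0.29 (-1.27 to 0.62), and mir-150 -0.54 (-1.72 to 0.57) and -1.11 (-2.18 to -0.20). Between the DOX libraries, neither set of blood precursors moved as 1. The part of other cells in the members' values was not tested.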

How the data were processed

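The authors prepared TruSeq small RNA libraries, sequenced them on an Illumina HiSeq, processed reads with the BaseSpace Small RNA application (version 1.0) and aligned them to human sequences (hg19 in the submitters' notes). The authors compared groups with DESeq2, version not given. The authors' mean in the deposited tables is a signal, reads divided by size factors and averaged over libraries. The deposited fold changes, p-values, status, control and comparison columns hold the authors' comparisons and were not used.

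Means at 1 h and 22 h lacked their decimal mark, which was restored by the power of 10 that the last table gives for an entry of equal name (1506 and 1323 entries). At 1 h, 15 of these were raised 10-fold to reach the lowest listed value. All 1323 restored means at 22 h and all 2369 above 0 in the last table were whole combinations of the reads of 2 libraries, to within 6.56e-07. With DOX 22 h as the shared library, 1052 of 1052 entries solved at 22 h alone satisfied the last table, where 14.3% would by chance and the next assignment satisfied 132. A single solution held for 1213 entries with a sequence and several for 107. Recovery was tested on simulated data.

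Starts more than 15 bases apart were taken as different strands. Named were all members and strands, the leading entry of each strand and entries with at least 10% of it, entries past the fold limit with at least 10 reads, and the 3 nearest arms per cluster. Other entries named were chosen after their values were seen. Members and lists were chosen with earlier results of these data known. Python 3.11.15, numpy 2.4.6, pandas 2.3.3, scipy 1.17.1 and matplotlib 3.10.9 were used.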

Additional observations from a re-analysis of the deposited data

How the results depend on the processing

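Values were recomputed under 1 changed choice at a time. Among those that answer a comparison, 111 recomputed values moved by less than the interval and 21 by more, and for single strands, entries and shares 349 moved by less and 21 by more. For single entries, other scalings and another number added to the reads could not turn a ratio past the fold limit. That their directions held is therefore no test. The alternatives without mir-92a, with sequences summed over precursors, for ratios and for the shares of the less abundant strands, with entries listed at the level of either library, and with all entries of the DOX libraries were chosen after seeing the data.

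Scaling by total reads gave log2 ratios at 22 h of 0.00238 for miR-17-92, 0.0153 for mir-92a-2 and -0.0112 for the miR-92 family. With sequences listed under 1 precursor only, miR-17-92 had 0.0869 at 22 h and 0.0634 between the DOX libraries, the miR-19 family 0.28 and 0.44, and the miR-92 family 0.0382 between the DOX libraries. With entries solved in the 22 h table alone, miR-17-92 had 0.0666 and 0.0955, miR-106b-25 had 0.30 between the DOX libraries, and the miR-92 family -0.0174 at 22 h. Without mir-92a-1 and mir-92a-2, miR-17-92 had 0.0905 and 0.0781, and the miR-92 family, then mir-25 alone, -0.0125 between the DOX libraries. With the leading entry of each strand, the miR-19 family had 0.15 at 22 h. Scaling by total reads sums the same entries and the other alternatives sum other ones, and beyond that the cause was not tested. With at least 50 reads, 0 entries passed the fold limit at 22 h and 3 between the DOX libraries, as fewer entries were counted. With each sequence counted once, mir-92a-2 held 0.0776%, 0% and 0.0814% of the members' mean at 1 h, at 22 h and in DOX 22 h with DOX 1 h, its main sequence being counted under mir-92a-1. A distance of 10 bases between strands changed the strand of 0 entries.

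No paired analysis was possible because each comparison with reads held 1 library per group, and leaving out a replicate was not possible for the same reason. Intervals cover counting error alone, so variation between animals and preparations is unknown. At 1 h only joint means were used. Entries under the limit of the 22 h table have no DMSO 22 h reads. Recovered reads leave out the most abundant entries, whose means allow several solutions, and the depth of the libraries is unknown.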
